A study of Homo sapiens with 36 samples.

Results

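The semaphorins, plexins and neuropilins form 1 signalling family of guidance ligands, their receptors and the co-receptors. They were examined here in HMC3 cells, an established human line labelled as microglial, treated with perfluorooctane sulfonate (PFOS), a fluorinated surfactant that lasts in the environment. The members were chosen by gene symbol alone: SEMA3A to SEMA7A, the class A to D plexins, NRP1 and NRP2, which gave 31 of the 25344 symbols in the deposited count table. The family itself was picked with earlier results of these data known, so the tests below describe its members and support nothing by themselves. Cells of the 6 groups received 25 µM PFOS, 50 µM PFOS or vehicle for 24 h and were taken either at the end of exposure or after another 24 h in medium without PFOS, called recovery here. All groups were grown in the same serum-containing medium, and each had 3 poly(A) RNA libraries, 18 in all, which the labels name biological replicates. The labels do not say whether these came from separate cultures, and p-values then cover only the variation among these libraries, which may be technical.

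Semaphorins are ligands that share a sema domain, and are secreted (class 3), membrane-spanning (classes 4 to 6) or held by a lipid anchor (class 7). Most of them act through plexins, single-pass receptors whose cytoplasmic part switches off small GTPases of the Ras and Rap type, so that adhesion and the actin cytoskeleton give way at the contacted side of a cell. Most class 3 semaphorins reach plexins through a neuropilin, which has almost no signalling part of its own and also binds vascular endothelial growth factors. The family is best known from growing axons and vessels, and in the brain it also serves microglia, astrocytes and cells of the vessel wall.

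Of the 31 members, 13 had enough counts to be tested among the 9847 genes kept, and 18 did not. The tested ones were 7 of 20 semaphorins (SEMA3B, SEMA3C, SEMA3D, SEMA4B, SEMA4C, SEMA4F and SEMA5A), 5 of 9 plexins (PLXNA1, PLXNA3, PLXNB2, PLXNB3 and PLXND1) and 1 of 2 neuropilins (NRP1). No member of class 6 (0 of 4), class 7 (0 of 1) or the class C plexins (0 of 1) was among them. The 31 members together held 18587 counts over the 18 libraries, of which the tested members held 94.7%. By total counts the lowest tested member was SEMA3D with 168, and the highest untested ones were NRP2 with 131 and SEMA7A with 125. The filter itself acts on the level reached in several libraries and is not a cut on the total. A member that passed the filter through 1 group could still differ between groups for that reason, so the 13 do not stand for the family.

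**Figure D1:**
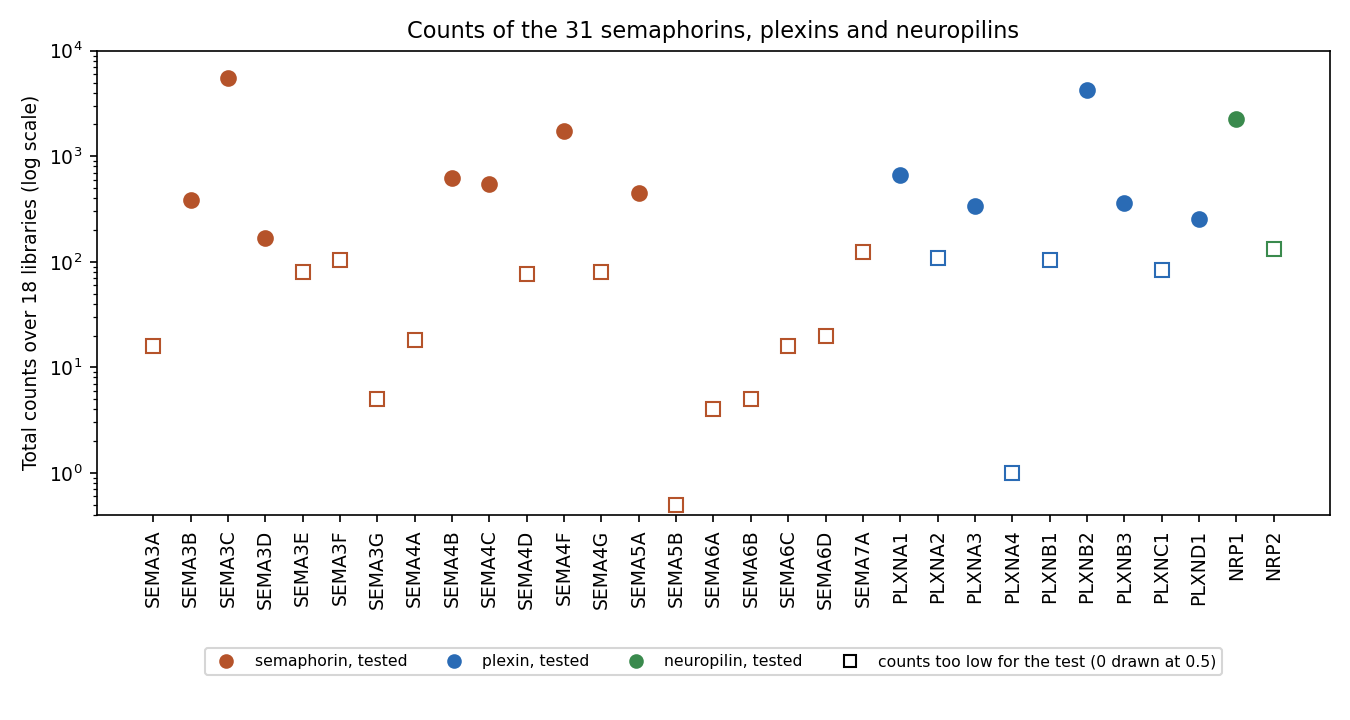
Total counts of each of the 31 members over the 18 libraries, on a log axis. Filled circles are the 13 tested members, all at 168 counts or more, and open squares are the 18 with too few counts, from SEMA5B at 0 (drawn at 0.5) to NRP2 at 131.

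Among the members left untested, 9 had more than 20 counts in total and 9 had 20 or fewer. SEMA5B had 0 counts in all 18 libraries, which allows a level of up to 0.0891 CPM (counts relative to library size) over the libraries together, taking 3 counts as the limit. In a single library that limit lay between 0.690 and 5.15 CPM, and it covers counting error only. PLXNA4, a receptor for class 3 and class 6 semaphorins, had 1 count. SEMA3A, the founding axon repellent, had 16 counts, and the class 6 ligands SEMA6A, SEMA6B, SEMA6C and SEMA6D had 4, 5, 16 and 20. At this depth these genes were near or below what could be detected, which is not the same as absent.

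The libraries were shallow, at 582233 to 4346627 counts each. The 3 libraries of 50 µM PFOS after recovery stood apart from the other 15. On the first principal component of log2 CPM, which held 40.5% of the variance, they scored 14.9, 105.3 and 52.9 in replicates 1, 2 and 3, against -29.4 to 3.4 elsewhere. Their share of counts in 88 ribosomal protein genes was 2.98%, 7.69% and 5.10%, against 1.22% to 2.45% in the other libraries. Every recovery result at 50 µM rests on these libraries. Of 12 microglial markers only CD68 had enough counts to be tested, and CX3CR1, AIF1, TYROBP and SALL1 had none, whereas 10 of 11 fibroblast or pericyte markers were tested, all but COL3A1, which had no count. Of 5 markers each, 1 was tested for astrocytes, 2 for neurons and 0 for oligodendrocytes and endothelial cells. The label of a microglial cell is thus not borne out by these defining markers, and the cells are called HMC3 below. The summed microglial markers, whose counts are nearly all those of CD68, reached 56.2 to 79.5 CPM after 24 h at 50 µM, against 22.1 to 23.1 CPM in vehicle, and 52.8 to 65.1 CPM after recovery from 50 µM, against 17.4 to 29.1 CPM in vehicle. The summed fibroblast or pericyte markers lay at 1819 to 2065 CPM after 24 h at 50 µM, against 3613 to 3706 CPM in vehicle, and at 2077 to 2658 CPM after recovery from 50 µM, against 2849 to 3599 CPM in vehicle. Both sums moved in the same comparisons as the members below, and their part in those results was not tested. In bulk libraries, fewer cells of a kind and less RNA per cell cannot be told apart.

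After 24 h, the 50 µM dose left NRP1 about 3.00-fold higher than vehicle and PLXNB3 higher, while SEMA3D fell. By edgeR's quasi-likelihood test at an adjusted p under 0.05, 2 of the 13 members were higher, where 9.18% of all genes were, and 1 was lower, where 9.59% of all genes were. In the recovery groups at 50 µM, NRP1 was still higher (1 of 13, against 17.7% of all genes) and SEMA5A, PLXNA1 and SEMA4C were lower (3 of 13, against 10.7%). At 25 µM no member passed at 24 h, where 1.24% of all genes did, and none after recovery, where 0% did. In that last comparison 693 genes lay at an unadjusted p under 0.05, none of them a member, and DESeq2 called 1 gene. With 13 members, counts this small are not read as a result about the family. Groups of 3 libraries without overlap were common among all genes tested, in either direction. At 24 h they made up 22.9% at 25 µM and 41.4% at 50 µM against vehicle, and after recovery 13.8% and 31.3%. A lack of overlap given below is therefore description only. The median log2 change of the 13 members was 0.07 after 24 h at 50 µM, against 0.01 over all genes tested. For recovery from 50 µM it was -0.68, against -0.05, with 11 of the 13 members below 0. The share of all genes below 0 was not counted, so that number is not read as a shift of the family. At 25 µM the medians were 0.20 at 24 h, against 0.00 over all genes, and 0.05 after recovery, against 0.00.

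**Figure D2:**
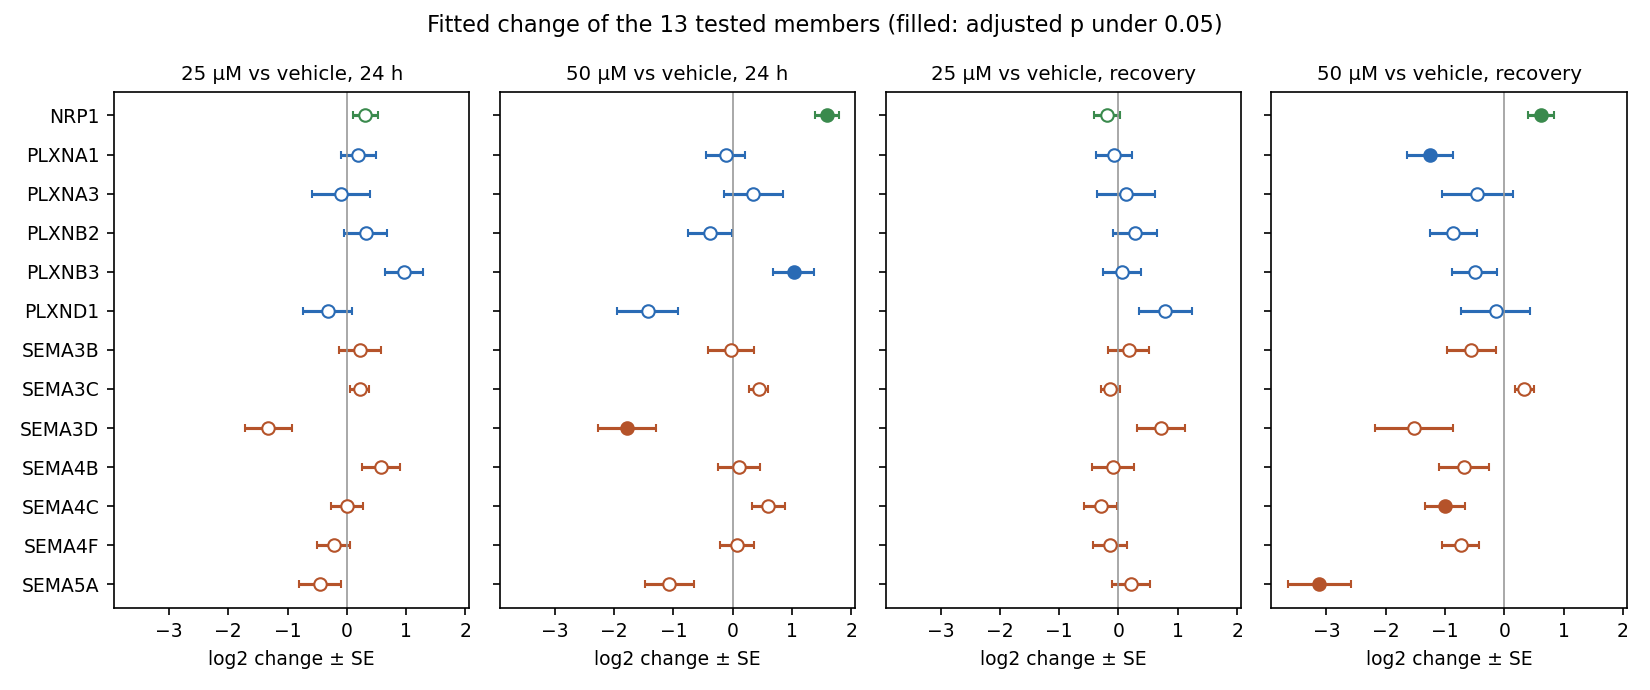
Fitted log2 change of each tested member (rows) for each PFOS dose over vehicle at 24 h and after recovery, with bars of 1 standard error (SE). Filled points passed the test, which happened only in the 50 µM panels. In the recovery panel at 50 µM 11 of the 13 members lie left of 0, a number not set against all genes.

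Set against 25 µM, the 50 µM dose gave 1 higher member at 24 h, NRP1, where 3.79% of all genes were higher. After recovery it gave 2 higher members, NRP1 and SEMA3C (against 14.7% of all genes), and 4 lower, SEMA5A, SEMA3D, PLXNA1 and PLXNB2 (against 7.38%). The 50 µM effect itself was smaller or turned downward after recovery, compared with its size at 24 h, for 3 members, NRP1, PLXNB3 and SEMA4C, where 7.42% of all genes changed that way. The 25 µM effect did not pass that test for any member (0.0203% of all genes did). In vehicle cells no member passed the test of recovery against 24 h, where 0.975% of all genes did. These comparisons share groups, so their counts do not add up as separate evidence. Of the 17 calls, 3 held under all alternatives tried (other scalings, filters and models, a gene-span correction, each library left out in turn). They were NRP1 at 50 µM over vehicle and over 25 µM at 24 h, and SEMA5A at 50 µM over vehicle after recovery.

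**Figure D3:**
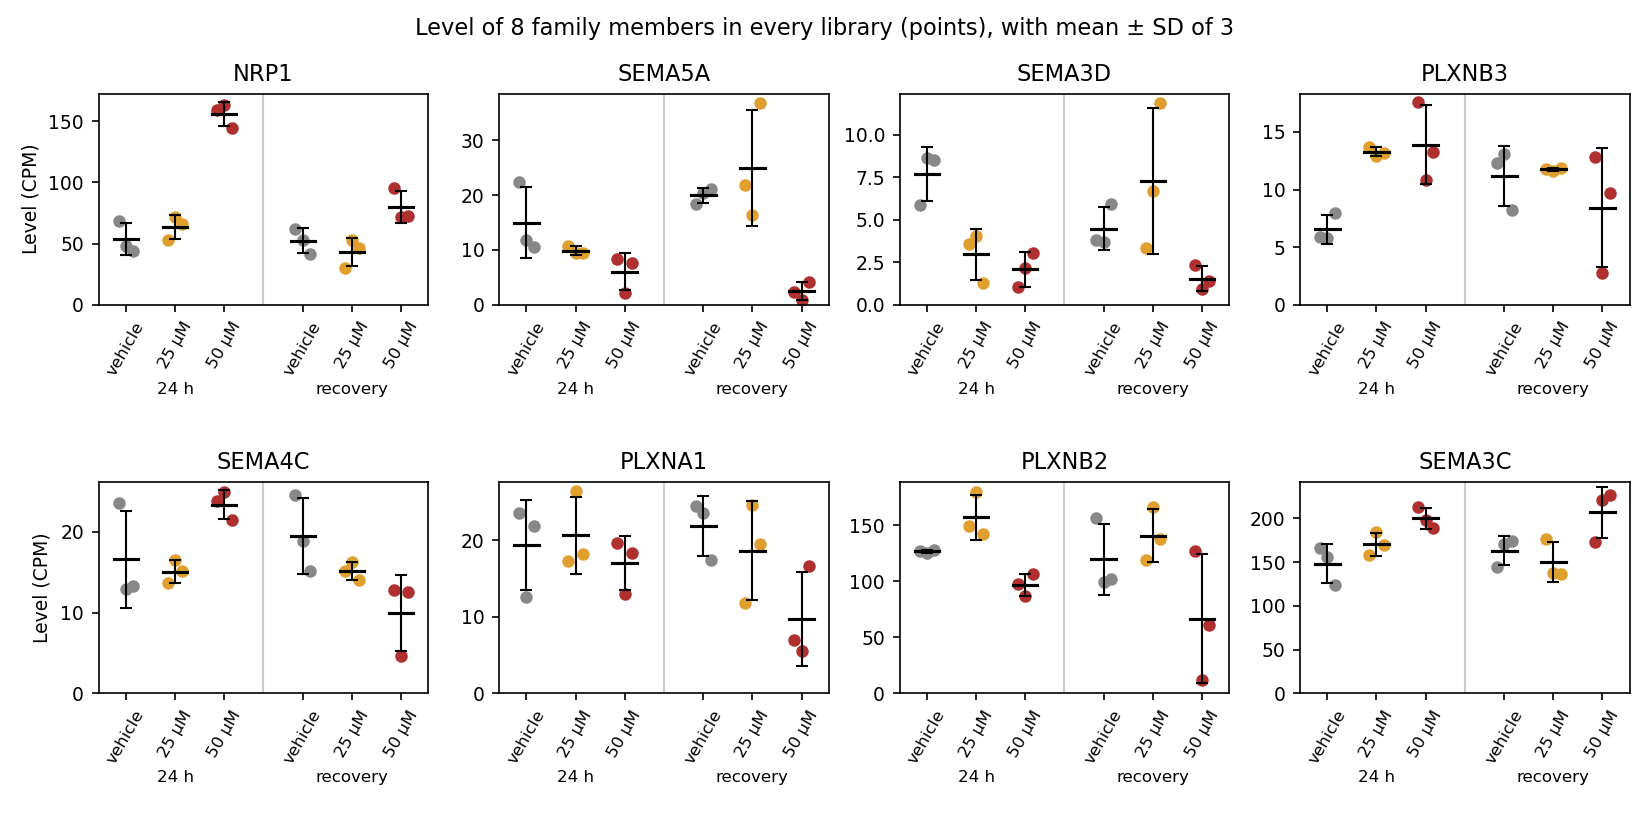
Level in CPM of the 8 members called in any comparison, with each library as a point and the mean ± SD of 3 libraries in black, by dose at 24 h and after recovery. NRP1 after 24 h at 50 µM lies at 144 to 163 CPM, above all other libraries, and SEMA5A after recovery from 50 µM lies at 0.911 to 4.17 CPM, below all 3 vehicle libraries of that time.

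SEMA5A, PLXNA1 and SEMA4C, the members called lower than vehicle after recovery from 50 µM, are shown here with their start regions. These run from 250 bases before to 50 after the annotated start, from RefSeq on GRCh38.p14. The regions are chr5:9546026-9546325 on the minus strand, chr3:126982865-126983164 on the plus strand and chr2:96870031-96870330 on the minus strand, the last at a start inside the outer end of the gene. Capitals mark the GC box, GGGCGG on either strand, the core letters bound by SP-type factors.
SEMA5A: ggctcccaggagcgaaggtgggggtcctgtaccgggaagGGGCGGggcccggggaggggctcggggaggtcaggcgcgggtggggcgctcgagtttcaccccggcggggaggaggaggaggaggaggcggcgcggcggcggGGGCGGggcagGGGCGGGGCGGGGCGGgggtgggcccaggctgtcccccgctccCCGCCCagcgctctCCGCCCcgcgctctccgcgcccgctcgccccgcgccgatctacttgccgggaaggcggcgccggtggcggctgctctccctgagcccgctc
PLXNA1: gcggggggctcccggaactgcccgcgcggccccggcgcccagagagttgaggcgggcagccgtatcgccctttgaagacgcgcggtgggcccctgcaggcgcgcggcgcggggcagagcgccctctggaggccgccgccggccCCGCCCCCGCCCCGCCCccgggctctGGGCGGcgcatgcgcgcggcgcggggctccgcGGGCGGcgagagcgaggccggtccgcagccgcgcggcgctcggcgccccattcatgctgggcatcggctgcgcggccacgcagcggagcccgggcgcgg
SEMA4C: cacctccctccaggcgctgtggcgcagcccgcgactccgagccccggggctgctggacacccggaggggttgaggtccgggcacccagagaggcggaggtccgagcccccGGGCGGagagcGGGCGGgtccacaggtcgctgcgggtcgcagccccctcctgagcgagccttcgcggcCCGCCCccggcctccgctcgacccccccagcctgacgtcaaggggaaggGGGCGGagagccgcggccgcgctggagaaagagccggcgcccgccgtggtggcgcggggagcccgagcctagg
These windows held 7, 5 and 4 GC boxes, counting overlapping matches, where 45.0% of 35116 RefSeq promoters of the same length hold at least 1. Their GC content was 81.0%, 83.0% and 78.0%, against a median of 58.7%, and they held 39, 54 and 37 CpG pairs, against a median of 14. None held the TATA box letters TATAAA on either strand, which 11.5% of promoters hold. Nor did any hold the AP-1 site TGANTCA (7.71% of promoters) or the ATF4 composite site TGATGNAA (3.62% of promoters). The start regions of SEMA3D and PLXNB3, called in other comparisons, were less rich. That of SEMA3D held 0 GC boxes, 57.0% GC and 14 CpG pairs, and that of PLXNB3 held 2, 65.7% and 15. The SEMA3D region, chr7:85187007-85187306 on the minus strand, is at a start well inside the gene, whose outer end is at 85250243. Which start was in use was not tested. SEMA3D also lay below vehicle after recovery from 50 µM. A GC-rich start is not read as a trait of the lowered members. The match of letters is a description of the sequence and says nothing of which factor acts there. A start region was at hand for 27 of the 31 members, all but SEMA3A, SEMA6A, SEMA6B and NRP1.

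The tested ligand with the largest fitted change over vehicle was SEMA5A, a membrane-spanning semaphorin with thrombospondin repeats that binds plexin B3 (chr5:9035033-9546075, GRCh38.p14). After recovery from 50 µM PFOS it had 2.33, 0.911 and 4.17 CPM in replicates 1 to 3, against 18.4, 20.4 and 21.1 CPM in vehicle. All 3 treated libraries were low and the groups lay far apart. The treated values rest on 6 counts in all, against 148 in vehicle, so the size of the drop is poorly fixed. The log2 change was -3.12 ± 0.54 (SE, edgeR adjusted p = 0.000226), and over the alternatives it ran from -3.65 to -2.64. SEMA5A at 25 µM after recovery had 21.8, 16.3 and 36.7 CPM, which overlapped with vehicle (0.21 ± 0.32, adjusted p = 0.958). The difference of 50 from 25 µM after recovery was -3.33 ± 0.55 (edgeR adjusted p = 0.000598). This call was lost when each comparison was fitted on its own groups alone or without replicates 2 and 3 of the 50 µM recovery libraries (highest adjusted p = 0.115).

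At 24 h SEMA5A had 8.28, 2.16 and 7.65 CPM at 50 µM, against 22.4, 11.9 and 10.6 CPM in vehicle. All 3 treated values lay below the lowest vehicle value, but the change of -1.07 ± 0.42 did not pass (edgeR adjusted p = 0.0803). At 25 µM it had 10.8, 9.44 and 9.43 CPM at 24 h, and 1 of these lay within the vehicle range. Whether the 50 µM effect was larger after recovery than at 24 h did not pass the test either, at -2.05 ± 0.75 (edgeR adjusted p = 0.0582). That difference passed in some alternatives, among them the fit without the low-count filter (edgeR adjusted p = 0.0302).

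SEMA3D, a secreted class 3 ligand that signals through neuropilin-1 (chr7:84995553-85250243), was lower at both doses by its values at 24 h. It had 1.04, 2.16 and 3.06 CPM at 50 µM, against 5.88, 8.65 and 8.54 CPM in vehicle, with no overlap. These are 9 counts against 58, and the change of -1.78 ± 0.49 passed (edgeR adjusted p = 0.0127), but not without replicate 1 of the 50 µM libraries (-1.54, adjusted p = 0.0557). At 25 µM it had 3.60, 4.05 and 1.26 CPM, again below all 3 vehicle libraries, and the change of -1.32 ± 0.40 did not pass (edgeR adjusted p = 0.152). After recovery, SEMA3D had 2.33, 0.911 and 1.39 CPM at 50 µM, against 3.83, 3.67 and 5.95 CPM in vehicle. The groups did not overlap, with 4 counts against 32, and the change of -1.53 ± 0.65 did not pass (edgeR adjusted p = 0.0853). At 25 µM after recovery it had 3.35, 6.70 and 11.9 CPM, and 50 µM differed from these by -2.25 ± 0.62 (edgeR adjusted p = 0.0137). Without replicate 2 of the 50 µM recovery libraries that difference was -1.92 (adjusted p = 0.108). It also did not pass in DESeq2 or with the 2 groups fitted alone. The highest group means of SEMA3D were 7.69 CPM in vehicle at 24 h and 7.31 CPM at 25 µM after recovery. SEMA3D passed the filter through libraries of these 2 groups, the ones it was called lower against. Both calls are therefore description only.

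SEMA4C, a membrane-spanning ligand of plexin B2 (chr2:96859718-96870830), had opposite signs at the 2 times. Once PFOS at 50 µM had been removed, it had 12.8, 4.56 and 12.5 CPM, against 24.5, 18.9 and 15.1 CPM in vehicle, all 3 treated libraries being lower than any vehicle library. The change was -1.00 ± 0.34 (edgeR adjusted p = 0.0303). At 24 h it had 23.8, 24.9 and 21.4 CPM at 50 µM, against 23.5, 13.0 and 13.3 CPM in vehicle. Those groups overlapped, because replicate 1 of vehicle was as high as the treated libraries, and the change of 0.60 ± 0.28 did not pass (edgeR adjusted p = 0.147). The difference between the 50 µM effects at the 2 times was -1.61 ± 0.44 (edgeR adjusted p = 0.0159), and -1.20 without replicate 2 of the 50 µM recovery libraries (adjusted p = 0.0578). The recovery change of SEMA4C itself was lost without that library (-0.58, adjusted p = 0.272), without vehicle recovery replicate 1 (-0.83, adjusted p = 0.101) and without vehicle recovery replicate 2 (-0.99, adjusted p = 0.0649). It was also lost with the 2 groups fitted alone.

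The other tested ligands moved less. SEMA3C, a secreted ligand for neuropilins with plexin D1 and other plexins (chr7:80742538-80922389), had 173, 221 and 226 CPM after recovery from 50 µM, against 176, 138 and 136 CPM after recovery from 25 µM. Replicate 1 of each group overlapped with the other, and the difference of 0.48 ± 0.16 passed (edgeR adjusted p = 0.0386), but not without 50 µM recovery replicate 2 or 3, 25 µM recovery replicate 2 or 3 or 25 µM 24 h replicate 3, where it ran from 0.41 to 0.48 with adjusted p up to 0.177. It also failed without the low-count filter, with the replicate number as a block and with the 2 groups fitted alone. At 24 h SEMA3C had 213, 198 and 189 CPM at 50 µM, against 166, 155 and 123 CPM in vehicle. The treated libraries were all higher, and the change of 0.44 ± 0.16 just missed the threshold (edgeR adjusted p = 0.0549). It passed in DESeq2 (0.46, adjusted p = 0.0282). SEMA3B, SEMA4B and SEMA4F passed in no comparison in the reported fit, but each was called lower after recovery from 50 µM without replicate 1 of that group (-1.28, -1.33 and -1.13; adjusted p = 0.0387, 0.0325 and 0.011). Their group means ran from 8.73 to 13.7 CPM for SEMA3B, from 11.1 to 25.0 CPM for SEMA4B and from 36.5 to 60.8 CPM for SEMA4F, each lowest in the 50 µM recovery group. SEMA4F was also called lower than vehicle after recovery from 50 µM without the low-count filter (-0.78, edgeR adjusted p = 0.0138). The same held without vehicle recovery replicate 2 (-0.99, edgeR adjusted p = 0.0236).

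Among the receptors, PLXNA1 (chr3:126983115-127037389), which pairs with neuropilins for class 3 ligands and binds class 6 ligands directly, was lower after recovery from 50 µM. It had 6.98, 5.47 and 16.7 CPM, against 24.5, 23.6 and 17.4 CPM in vehicle. The highest treated library, replicate 3, lay just below the lowest vehicle library. The change was -1.25 ± 0.39 (edgeR adjusted p = 0.0198). It was lost without 50 µM recovery replicate 2 (-0.92, adjusted p = 0.139), vehicle recovery replicate 1 (-1.16, adjusted p = 0.0532) or vehicle recovery replicate 2 (-1.14, adjusted p = 0.0639). The fit of these 2 groups alone lost it too. At 24 h PLXNA1 had 19.7, 13.0 and 18.4 CPM at 50 µM, against 23.5, 12.6 and 21.8 CPM in vehicle, and these groups overlapped fully (-0.11 ± 0.33, edgeR adjusted p = 0.854). At 25 µM it had 17.3, 26.4 and 18.2 CPM at 24 h and 11.7, 24.6 and 19.5 CPM after recovery, within or around the vehicle values. The 50 µM recovery libraries differed from the 25 µM recovery libraries by -1.17 ± 0.40 (edgeR adjusted p = 0.0409), which was lost without 50 µM 24 h replicate 3, 50 µM recovery replicate 1 or 2, or 25 µM recovery replicate 2 or 3. The smallest change, without 25 µM recovery replicate 2, was -0.82 (adjusted p = 0.312). That call over 25 µM was also lost with the gene-span trend removed (-1.09, adjusted p = 0.0605) and with the 2 groups fitted alone (-1.13, adjusted p = 0.191). The same held with the replicate number as a block and without 50 µM recovery replicates 2 and 3 together.

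PLXNB3 (chrX:153764249-153779341), the receptor for SEMA5A, was higher than vehicle at both doses by its values at 24 h. It had 17.6, 10.8 and 13.3 CPM at 50 µM and 13.7, 13.0 and 13.2 CPM at 25 µM, against 5.88, 5.77 and 7.95 CPM in vehicle. Neither dose overlapped with vehicle, as was so for 41.4% of all genes at 50 µM and 22.9% at 25 µM. The 50 µM change of 1.03 ± 0.34 passed narrowly (edgeR adjusted p = 0.0405) and failed in 9 of the 18 fits that left out 1 library, where it ran from 0.86 to 1.24 with adjusted p up to 0.161. These left out any vehicle or 25 µM library of 24 h, replicate 1 or 3 of 50 µM at 24 h, or replicate 2 of 25 µM after recovery. The 25 µM change of 0.97 ± 0.32 did not pass (edgeR adjusted p = 0.238). After recovery PLXNB3 had 12.8, 2.73 and 9.73 CPM at 50 µM, against 12.3, 13.1 and 8.24 CPM in vehicle, so the vehicle cells themselves were at a level near that of the exposed cells at 24 h. Vehicle after recovery differed from vehicle at 24 h by 0.74 ± 0.33 (edgeR adjusted p = 0.336). The difference between the 50 µM effects at the 2 times was -1.52 ± 0.51 (edgeR adjusted p = 0.0415), which failed in 15 of 18 fits with 1 library left out (-2.03 to -1.02, adjusted p up to 0.156). It passed only without 50 µM 24 h replicate 2, 50 µM recovery replicate 1 or vehicle recovery replicate 3.

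PLXNB2 (chr22:50274979-50307646), the receptor for SEMA4C and other class 4 ligands, varied widely among the 50 µM recovery replicates. After recovery from 50 µM it had 127, 11.8 and 61.1 CPM, against 119, 166 and 137 CPM after recovery from 25 µM and 156, 99.6 and 102 CPM in vehicle. Replicate 2 was far below every other library, and replicate 1 lay within the vehicle range. The difference of 50 from 25 µM after recovery, -1.14 ± 0.40 (edgeR adjusted p = 0.0455), failed in 16 of 18 fits with 1 library left out, all but those without 50 µM recovery replicate 1 or vehicle recovery replicate 1. It was -2.12 without 50 µM recovery replicate 1 and -0.60 without replicate 2 (adjusted p = 5.71e-05 and 0.113). At 24 h PLXNB2 had 97.3, 86.5 and 106 CPM at 50 µM, against 127, 125 and 128 CPM in vehicle. Here the groups did not overlap and the replicates lay close, yet the change of -0.38 ± 0.37 did not pass with the spread shared by all 6 groups (edgeR adjusted p = 0.522). Fitted on the libraries of these 2 groups alone, the change of -0.38 ± 0.13 passed (adjusted p = 0.0355). The PLXNB2 difference of 50 from 25 µM at 24 h was -0.70 ± 0.37 and did not pass (edgeR adjusted p = 0.2855). It passed with those groups fitted alone (adjusted p = 0.000558) and without the low-count filter (adjusted p = 0.00893). PLXNA3 and PLXND1 passed in no comparison in the reported fit. PLXND1, the receptor for SEMA3E and partner in SEMA3C signalling, had 3.11, 0 and 6.12 CPM after 24 h at 50 µM, against 5.88, 11.5 and 10.9 CPM in vehicle (-1.43 ± 0.51, edgeR adjusted p = 0.0568). This change of PLXND1 passed in 9 of the alternatives, among them DESeq2 (adjusted p = 0.0479) and the fit without a filter (adjusted p = 0.0216).

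The co-receptor NRP1 (chr10:33177493-33334667) had the smallest adjusted p of the 13 members. After 24 h it had 159, 163 and 144 CPM at 50 µM, against 68.2, 47.9 and 44.2 CPM in vehicle. The 2 groups lay far apart and the treated libraries close together, at means of 156 ± 10.0 CPM and 53.4 ± 12.9 CPM (SD, n = 3 each), from 588 and 341 counts. The log2 change was 1.59 ± 0.21 (edgeR adjusted p = 1.03e-05), and it ran from 1.46 to 1.77 over the alternatives, all of which it passed. At 25 µM NRP1 had 52.6, 71.8 and 66.0 CPM, which overlapped with vehicle (0.31 ± 0.21, edgeR adjusted p = 0.771). The 50 µM libraries differed from the 25 µM libraries by 1.28 ± 0.20 (edgeR adjusted p = 0.00036). The difference between the doses was larger than the replicate spread, and that between 25 µM and vehicle did not pass.

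After recovery NRP1 had 95.3, 72.0 and 72.2 CPM at 50 µM, against 62.1, 53.2 and 41.7 CPM in vehicle. All 3 treated libraries were still above the highest vehicle library, by less than at 24 h. The change was 0.62 ± 0.21 (edgeR adjusted p = 0.0342), and was lost without 50 µM recovery replicate 1 (0.48, adjusted p = 0.0997), vehicle recovery replicate 2 (0.67, adjusted p = 0.0571) or vehicle recovery replicate 3 (0.48, adjusted p = 0.131). The same call over vehicle was also lost without the low-count filter and with the 2 groups fitted alone. At 25 µM NRP1 had 30.2, 52.7 and 46.5 CPM after recovery (-0.19 ± 0.22 against vehicle, edgeR adjusted p = 0.92), and 50 µM lay above those by 0.81 ± 0.22 (edgeR adjusted p = 0.0133). That call over 25 µM was lost under 2 of the 26 alternatives, among them the fit of these 2 groups alone. The 50 µM effect after recovery minus that at 24 h was -0.97 ± 0.30 (edgeR adjusted p = 0.027), and failed in 7 of 18 fits with 1 library left out (-1.12 to -0.83 over the 18, adjusted p up to 0.0852). These left out replicate 1 or 2 of 50 µM at 24 h, replicate 3 of 50 µM after recovery, replicate 2 or 3 of vehicle at 24 h, or replicate 1 or 2 of vehicle after recovery. Vehicle after recovery differed from vehicle at 24 h by 0.01 ± 0.21 (edgeR adjusted p = 0.994).

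NRP2, the second neuropilin, had too few counts for the test. After 24 h it had 10, 6 and 8 counts at 50 µM and 8, 15 and 6 at 25 µM, against 0, 11 and 16 in vehicle. After recovery it had 1, 3 and 5 counts at 50 µM and 1, 14 and 7 at 25 µM, against 7, 11 and 2 in vehicle. In a fit without the filter its change after 24 h at 50 µM was 0.78 ± 0.52 (edgeR adjusted p = 0.42). In the same fit SEMA3E, the plexin D1 ligand that needs no neuropilin, changed by -3.27 ± 1.08 after 24 h at 50 µM (edgeR adjusted p = 0.0263), from 1 count at 50 µM against 21 in vehicle. SEMA4D, the plexin B1 ligand that is shed from immune cells, changed by 2.13 ± 0.71 after recovery from 50 µM (edgeR adjusted p = 0.0205), from 15 counts against 9. Both rest on a handful of counts and on no leave-one-out check.

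**Figure D4:**
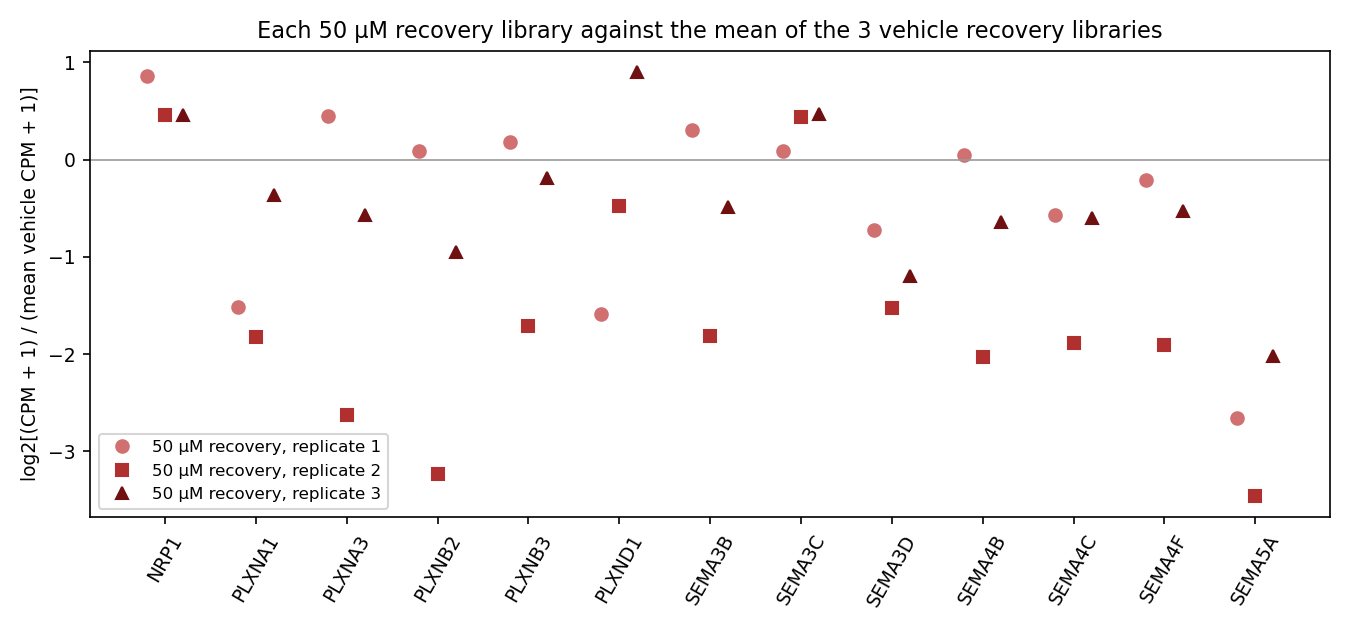
Ratio of each 50 µM recovery library to the mean of the 3 vehicle recovery libraries, as log2 of CPM + 1, for the 13 tested members. Replicate 2 (squares) lies lowest for most members, while NRP1 and SEMA3C lie above 0 and SEMA5A, SEMA3D, SEMA4C, SEMA4F and PLXNA1 lie below 0 in all 3 libraries.

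The 3 libraries of 50 µM after recovery differed in how many tested members lay below vehicle. In replicate 2, 11 of 13 members lay below all 3 vehicle libraries, in replicate 3 it was 7 and in replicate 1 it was 5, which is the order of these libraries on the first principal component and in their ribosomal share. Above all 3 vehicle libraries lay 2, 3 and 2 members in replicates 2, 3 and 1. The same counts were not made over all genes tested, so they are not read as a trait of the family. SEMA5A, SEMA3D, SEMA4C and PLXNA1 were below in all 3 libraries, and NRP1 above in all 3. Of all genes tested, 31.3% had these 2 groups apart, in either direction. Without replicates 2 and 3, a choice made after seeing the data, SEMA5A was the 1 member still called over vehicle (-3.08, edgeR adjusted p = 0.0453). The change of PLXNB2 over vehicle, -0.86 ± 0.39, did not pass in the reported fit and became 0.12 without those 2 libraries. With all libraries but no low-count filter it passed at -0.90 (edgeR adjusted p = 0.00041). Without 50 µM recovery replicate 1 it passed at -1.82 (edgeR adjusted p = 0.000228). The part of the separation of these libraries in the members' changes was not tested.

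Gene span moved with the same comparison. Over all tested genes longer genes had lower log2 changes after recovery from 50 µM (Spearman correlation of -0.31 over genes, which are not independent replicates), and the tested members had a median span of 51463 bases, against 31872 bases over all tested genes. SEMA5A, whose start region is shown above with those of PLXNA1 and SEMA4C, spans 511043 bases. With the span trend removed, SEMA5A changed by -2.86 (edgeR adjusted p = 0.000571), PLXNA1 by -1.13, SEMA4C by -1.15 and NRP1 by 0.86 over vehicle, and each of these still passed, while the call of PLXNA1 over 25 µM did not.

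Of the 26 tested genes that carry the family's signal, 1 rose and 2 fell after 24 h at 50 µM, against 9.18% higher and 9.59% lower of all genes. With 26 genes, counts this small are not read as a result about the list. None of the related genes listed here passed in the 25 µM comparisons with vehicle. DPYSL3 and DPYSL2, collapsin response mediators that link semaphorin receptors to microtubules, fell by 1.32 ± 0.26 and 0.61 ± 0.16 on the log2 scale (edgeR adjusted p = 0.000858 and 0.0112). MICAL2, an enzyme that oxidises actin filaments, rose by 0.66 ± 0.21 at 24 h (edgeR adjusted p = 0.03) and fell by 0.93 ± 0.23 after recovery (edgeR adjusted p = 0.0052), and the difference between the 2 effects was -1.59 ± 0.31 (edgeR adjusted p = 0.00256).

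After recovery from 50 µM, 3 of the 26 transducers rose and 2 fell, against 17.7% higher and 10.7% lower of all genes. These counts are not read as a result about the list either. RRAS, a GTPase that plexins switch off, rose by 1.30 ± 0.28 (edgeR adjusted p = 0.0013). CDK5, a kinase of the collapsin response mediators, rose by 0.93 ± 0.25, and CFL1, the actin-severing cofilin, by 0.54 ± 0.16. Both of these calls were lost with the gene-span trend removed, where CFL1 turned to -0.13. ARHGAP35, a GTPase-activating protein, fell by 0.90 ± 0.22.

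Of 7 tested co-receptors and alternative receptors, L1CAM and ITGB1 fell at both times, where 9.59% of all genes fell at 24 h and 10.7% after recovery. L1CAM, an adhesion molecule that partners neuropilin-1, changed by -1.30 ± 0.31 at 24 h and -1.26 ± 0.32 after recovery (edgeR adjusted p = 0.0053 and 0.00576). The recovery value of L1CAM was -0.43 without replicates 2 and 3 of the 50 µM recovery libraries, an alternative chosen after seeing the data (adjusted p = 0.443), and -1.19 with the 2 groups fitted alone (adjusted p = 0.141). ITGB1, the integrin beta chain of the SEMA7A receptor, changed by -0.38 ± 0.12 and -0.70 ± 0.12. PDGFRB, a growth factor receptor that neuropilin-1 can assist, was 1 of 2 tested genes among neuropilin's other ligands and partners and is also among the pericyte markers. It fell by 2.44 ± 0.33 at 24 h (edgeR adjusted p = 1.8e-05) and by 0.92 ± 0.30 after recovery (edgeR adjusted p = 0.0272). Without the same 2 libraries the recovery changes were -0.12 for PDGFRB, -0.40 for MICAL2 and -0.53 for ARHGAP35, and none of them passed (adjusted p = 0.871, 0.512 and 0.113).

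Of 5 tested proteases able to cut semaphorins or their receptors, 2 rose and 1 fell at 24 h (against 9.18% and 9.59% of all genes), and none passed after recovery (against 17.7% and 10.7%). MMP14, a membrane-bound matrix protease, rose by 1.39 ± 0.36 and ADAM17, a sheddase, by 0.90 ± 0.18, while the sheddase ADAM10 fell by 0.62 ± 0.15 (edgeR adjusted p = 0.0088, 0.000962 and 0.00719). After recovery the estimates for MMP14 and ADAM17 lay below 0, at -0.46 ± 0.40 and -0.39 ± 0.18, and did not pass (edgeR adjusted p = 0.421 and 0.11). The 50 µM effect after recovery minus that at 24 h was -1.85 ± 0.53 for MMP14 and -1.29 ± 0.25 for ADAM17 (edgeR adjusted p = 0.021 and 0.00232).

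In the other guidance families 4 of 11 tested genes rose and 1 fell at 24 h, against 9.18% and 9.59% of all genes. The ROBO-family genes ROBO4 and ROBO3 rose by 1.92 ± 0.52 and 1.62 ± 0.27 (edgeR adjusted p = 0.0124 and 0.000191). The ephrin receptor EPHB2 and ephrin EFNB3 rose by 1.37 ± 0.43 and 1.21 ± 0.25. EFNB2, another B-class ephrin, fell by 1.99 ± 0.50 (edgeR adjusted p = 0.00731). After recovery EFNA1 was the 1 gene of the 11 that passed (against 10.7% of all genes lower), at -1.11 ± 0.34 (edgeR adjusted p = 0.0205). These lists were drawn up with earlier results of these data known. At 24 h, DPYSL2, MICAL2, ITGB1, MMP14, ROBO4 and EPHB2 each lost their call under at least 1 alternative, while DPYSL3, L1CAM, PDGFRB, ADAM17, ADAM10, ROBO3, EFNB2 and EFNB3 kept theirs in all that could be run. Of those 6, all were lost in some fits with 1 vehicle or 50 µM library of 24 h left out, at adjusted p up to 0.194 (EPHB2, range 0.94 to 1.80). After recovery each of the 9 listed genes called lost its call under at least 1 alternative. With 1 library left out, CDK5, CFL1, EFNA1 and PDGFRB lost it, each of them without 50 µM recovery replicate 2, at adjusted p up to 0.151, CFL1 also without vehicle recovery replicate 3, EFNA1 without vehicle recovery replicate 2, and PDGFRB without vehicle recovery replicate 1 or 3 or 50 µM recovery replicate 3.

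**Figure D5:**
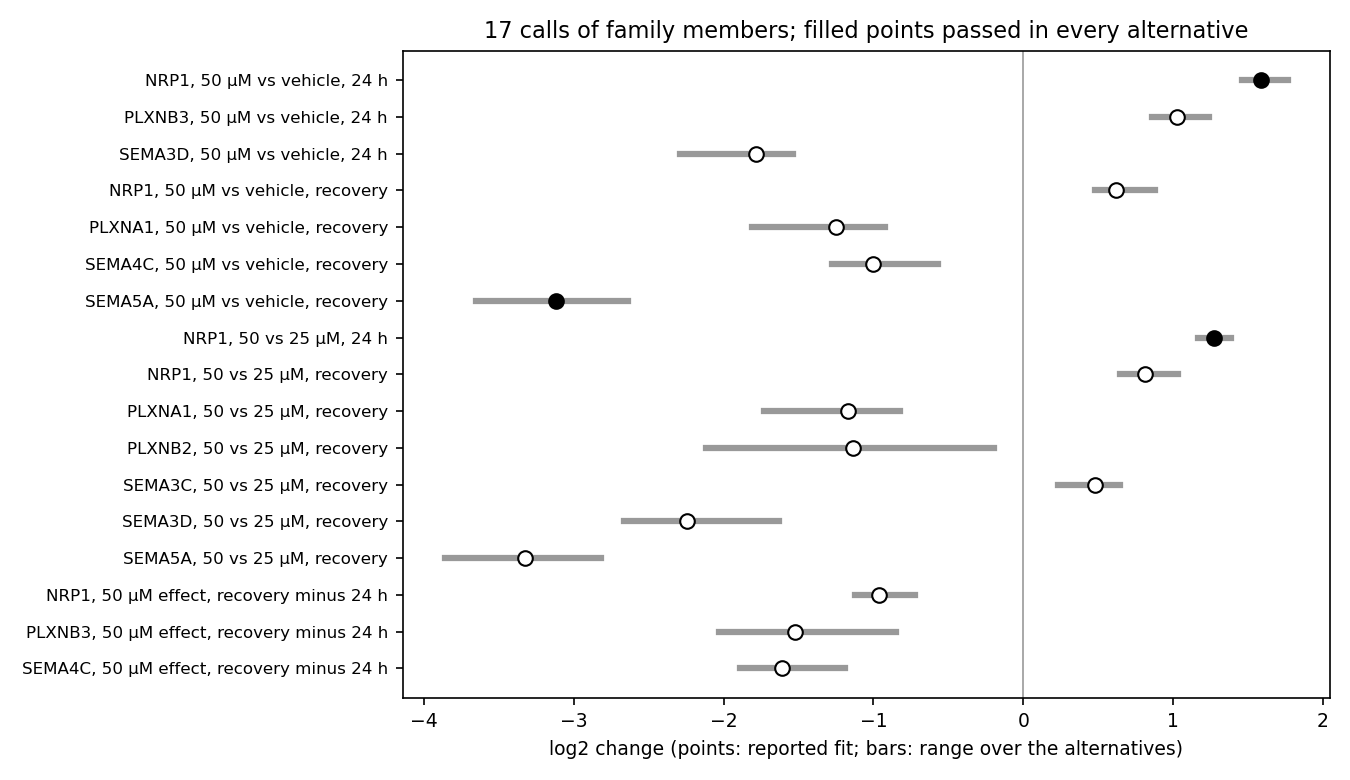
Log2 change of each of the 17 calls of family members (points), with the range over the alternatives (bars). Filled points, NRP1 at 50 µM over vehicle and over 25 µM at 24 h and SEMA5A at 50 µM over vehicle after recovery, passed in every alternative, and no bar crosses 0.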

How the data were processed

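RNA-seq covered 18 of the 36 samples; the 18 CUT&Tag samples were not analysed here. Per the labels' protocols, total RNA was taken with TRIzol and poly(A)-selected Smart-seq2 libraries were sequenced in pairs of reads. This workflow does not mark strand and uses PCR without molecular identifiers, so the limits given for 0 counts cover counting error only, while standard errors come from the spread between libraries. The authors deposited raw counts per gene symbol, without normalization, per the file headers, and 0 columns were left without a sample. Per the submitters' processing notes, Trimmomatic, STAR and DESeq2 were used with GRCh38 (hg38). No counting tool, annotation or tool version is named in the sources used here. SEMA3B-AS1, the 1 antisense partner of a member in the table, had 4 counts.

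Genes were kept with filterByExpr at a minimum count of 10 over the 6 groups, which left 9847 of 25344 symbols with 99.2% of the counts. The 18 libraries were scaled by TMM and fitted with edgeR 4.0.16 in R 4.3.3 (quasi-likelihood, 1 mean per group, all groups sharing the spread). Two-sided p-values were adjusted over the genes kept (Benjamini-Hochberg), and "called" or "passed" means under 0.05. CPM values use the TMM-scaled library sizes. Replicates differed by more than counting noise (chi-square per degree of freedom of 1.29 to 21.4), so all were counted separately. The fit was checked on simulated data. Gene positions and start regions came from RefSeq on GRCh38.p14. No transcript or protein lengths were used here, so levels are not compared between genes, and the planned per-length levels and protein sequences were not made.

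The members, the lists of related genes and the cell markers were chosen with earlier results of these data known. Members were found by symbol. Values in every library are given for each member called in any of the 9 comparisons, and for NRP1, NRP2 and PLXNA1. Of the related lists, every gene called against vehicle is named. The plan had been at most the 4 of largest change a list and comparison. SEMA3E, SEMA4D and PLXND1 were named after their values were seen. Alternatives were DESeq2 1.42.0, its size factors in edgeR, other filters, a replicate block, fits of a comparison's own groups, removal of a trend with gene span and leaving out each library. Leaving out replicates 2 and 3 of the 50 µM recovery group was added after seeing the data. Reads shared by related genes could have been divided by the counting in ways not known here.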

Additional observations from a re-analysis of the deposited data

Results flagged for a closer look

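For 3 of the 13 members the effect of 50 µM PFOS over vehicle passed the test of a difference between recovery and 24 h. In each the difference was below 0, as called for 7.42% of all genes. The count is not read as a result about the family. NRP1 had a difference of -0.97 on the log2 scale, its excess over vehicle being smaller after recovery. PLXNB3 had a difference of -1.52, and its level in vehicle was itself 0.74 higher after recovery than at 24 h, a change that did not pass (edgeR adjusted p = 0.336). SEMA4C had a difference of -1.61, with a positive estimate at 24 h that did not pass and a negative one after recovery that did. All 3 values rest on the 50 µM recovery libraries that stood apart, whose part in them was not tested. With 1 library left out, the difference failed in 7 of 18 fits for NRP1, 15 for PLXNB3 and 1 for SEMA4C. Each was also lost with the comparison's own groups fitted alone.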

How the results depend on the processing

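Of the 17 calls of members, 3 held under all alternatives run. At 50 µM over vehicle at 24 h, the count of members called was 3, against 5 in DESeq2, 1 at a minimum count of 20, 6 with the comparison's own groups fitted alone, 5 without the 2 outlying 50 µM recovery libraries and 1 to 5 with 1 library left out (1 without 50 µM 24 h replicate 1, 5 without 50 µM recovery replicate 1 or 2). The minimum of 20 also removed SEMA3D and PLXNB3 from the genes tested. After recovery from 50 µM the count was 4, against 1 in own groups, 1 without the 2 libraries and 2 to 8 with 1 library left out (8 without 50 µM recovery replicate 1, 2 without its replicate 2 or vehicle recovery replicate 1 or 2). For 50 over 25 µM at 24 h it was 1, against 2 without a filter, 2 in own groups, 2 without the 2 libraries and 1 to 2 with 1 left out (2 without 50 µM recovery replicate 2). For 50 over 25 µM after recovery it was 6, against 0 in own groups, 0 without the 2 libraries and 2 to 7 with 1 left out (2 without 50 µM recovery replicate 2, 3 without 25 µM recovery replicate 2 or 3). For the difference of the 50 µM effects between the times it was 3, against 0, 0 and 1 to 5. It was 5 without 50 µM recovery replicate 1 and 1 without its replicate 2, 50 µM 24 h replicate 1, vehicle 24 h replicate 2 or 3 or vehicle recovery replicate 1 or 2. In these cases the cause was not tested. The share of all genes called under each alternative is not given here, so these counts are not read as a result about the members. The comparisons at 25 µM, and that between the vehicle groups, had 0 in all alternatives. Leaving out the 2 libraries leaves 1 in that group, which is taken to vary like the other groups. The CFL1 change after recovery turned to -0.13 with the gene-span trend removed.

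Replicate numbers gave no sign of pairing the samples. This check rests on correlations among 3 libraries a group and cannot exclude cultures or batches shared between groups. Of 45 pairs with the same number 7 deviated together at a correlation over 0.1 (median -0.02), against 23 of 90 pairs with different numbers. With the replicate number as a block, the counts of members called were 2, 4, 1, 4 and 2 for 50 µM over vehicle at 24 h, 50 µM over vehicle after recovery, 50 over 25 µM at 24 h, 50 over 25 µM after recovery and the difference of the 50 µM effects. No share of all genes is set beside these counts either. Depth limits the 18 members left untested and every value resting on fewer than 10 counts, which includes SEMA5A and SEMA3D after recovery from 50 µM.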
